A study of Mus musculus with 3 samples.

Results

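Natural killer (NK) cells were examined in blood mononuclear cells of C57BL/6 mice on a droplet platform that reads the 3′ ends of transcripts of single cells. Each of 3 groups gave 1 library: young mice at 8 weeks, aged mice at 16 months, and aged-GA mice, which were 16 months old and had been given glycyrrhizic acid, a saponin of licorice root, into the tail vein every other day for 1 month. All mice were female by the study's methods, which also give control mice saline by the same route, while the labels name no treatment for young and aged mice; no transgene or deletion is named. With 1 library per group, the group and the library cannot be told apart, no test over samples could be made, and since each group was several mice by the study's description, a library pools their cells and shows no spread between mice. A barcode was taken as an NK cell when it held at least 200 genes, at most 7.5% of unique molecular identifiers (UMIs, each standing for 1 captured transcript) from mitochondrial genes and under 20% from haemoglobin genes, with at least 3 UMIs summed over Ncr1, Klrb1c, Klre1 and Klra8, at most 1 UMI of Cd3d, Cd3e and Cd3g, at most 1 of Cd79a and Cd79b, and none of Csf1r. These measured values chose 808 NK cells of 28333 barcodes that passed the quality filters and of 44212 deposited: 312 in the young, 253 in the aged and 243 in the aged-GA library.

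NK cells are innate lymphocytes that kill virus-infected and tumour cells by releasing perforin and granzymes, and that secrete interferon-gamma and chemokines. They carry no rearranged antigen receptor. Activity is set by a balance of germline-encoded receptors, in mice mainly the lectin-like Ly49 (Klra), NKG2 (Klrc, Klrk) and NKR-P1 (Klrb1) families. Inhibitory members of the Ly49 and NKG2 families recognise MHC class I on healthy cells. Activating receptors signal through adaptors such as DAP12 (Tyrobp). As they mature in the periphery, mouse NK cells lose Cd27 and gain Cd11b (Itgam) and Klrg1, with the factors T-bet (Tbx21), Eomes and Zeb2 directing this course.

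The NK cells held 1040989 UMIs in the young, 917532 in the aged and 892455 in the aged-GA library, with medians of 3042, 3180 and 3393 UMIs per cell. Levels are given as UMIs of a gene divided by the UMIs of all NK cells of the library and scaled to 1000000 (CPM), with exact 95% Poisson intervals, and shares of cells with exact 95% binomial (Clopper-Pearson) intervals; both cover counting error only. The label was checked on genes outside the rule. Gzma, a granzyme that cleaves proteins in the target cell, had 1 or more UMIs in 306, 239 and 239 NK cells of the young, aged and aged-GA library, at 16057, 14646 and 13669 CPM. In T cells of the same libraries, chosen by 3 or more Cd3 UMIs and no UMI of the 4 NK receptors, the level of Gzma was 11.9, 154 and 53.4 CPM. Nkg7, a granule protein, was found in 312, 251 and 243 NK cells. No barcode sequence was shared by NK cells of different libraries.

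Few cells lay at the receptor edge of the rule, while more lay at the Cd79 edge in aged-GA than in young mice. With exactly 3 receptor UMIs there were 12 cells in the young, 18 in the aged and 12 in the aged-GA library, in which Gzma stood at 16403, 7479 and 6692 CPM. Just outside, with 2 receptor UMIs, there were 8, 8 and 9 barcodes, at 17876, 4793 and 7425 CPM of Gzma. The Cd3 limit let in 16, 26 and 15 cells with 1 Cd3 UMI, and left out 5, 4 and 5 barcodes with 2. The Cd79 limit let in 7, 19 and 43 cells with 1 Cd79 UMI, in which Gzma stood at 26083, 11783.5 and 13154 CPM. A Csf1r UMI kept out no barcode in the young, 12 in the aged and 3 in the aged-GA library, and Cst3, a gene abundant in myeloid cells, was at 1714 and 1150 CPM in those of aged and aged-GA mice.

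Markers of other blood cells were sought in the summed NK cells. T cell markers came to 737, 832 and 843 CPM in young, aged and aged-GA mice, of which the T-cell receptor constant gene Trbc1 alone gave 306, 344 and 341, while Cd4, Cd5 and Cd6 had no UMI in young and at most 1 UMI each in the other libraries. The gamma-delta T cell list held 83.6, 79.6 and 91.9 CPM, led by Trdc. B cell markers came to 155, 549 and 854 CPM, against 220, 509 and 866 in T cells, and Igkc, an immunoglobulin light chain, was spread over 112 of 253 aged and 134 of 243 aged-GA cells at no more than 6 UMIs a cell. Red cell genes stood at 1433, 9351 and 7981 CPM, led by Hbb-bs, against 1032, 7508 and 5982 CPM in T cells. Monocyte and macrophage markers summed to 517, 831 and 686 CPM, dendritic cell markers to 159, 243 and 224, platelet genes to 39.4, 58.9 and 97.5, and basophil markers to 0, 2.18 and 3.36, with Mcpt8, Cpa3, Fcer1a and Ms4a2 at 0 in all 3 libraries. The T cell list includes Cd3d, Cd3e and Cd3g, the B cell list Cd79a and Cd79b, and the monocyte list Csf1r. The rule limited these genes, so the sums of these lists were in part set by the choice of cells. The T cells compared were also held to at most 1 Cd79 UMI. The part of all these marker transcripts in the results on NK cells was not tested.

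Neutrophil markers differed from these in that a few barcodes held most of them in aged and aged-GA mice. The list came to 8.65 CPM in the young, 1348 in the aged and 3900.5 in the aged-GA library. In aged-GA mice, 1 barcode carried 3278 of the 3481 neutrophil UMIs. In aged mice, 3 barcodes carried 962 of 1237. Without these 4 barcodes the list still came to 306 CPM in the aged and 231 in the aged-GA library. In T cells it came to 203 CPM in the young, 1308 in the aged and 1313 in the aged-GA library. S100a8, a calprotectin subunit of neutrophils, stood at 456 CPM in aged and 1449.9 in aged-GA NK cells, and 108 and 69.3 CPM once these 4 barcodes were left out. They held a median of 5942 UMIs in the aged and 11798 in the aged-GA library, and leaving them out was an alternative chosen after the values were seen.

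NK cells made up a smaller share of the barcodes that passed the filters in aged and aged-GA than in young mice. The share was 3.73% (interval 3.34 to 4.16) in the young, 2.77% (2.44 to 3.13) in the aged and 2.24% (1.97 to 2.54) in the aged-GA library. The aged over young log2 ratio was -0.43 (-0.68 to -0.19), and aged-GA over aged it was -0.31 (-0.57 to -0.05); the aged library serves in both. The latter was -0.17 (-0.43 to 0.09) against all deposited barcodes and -0.16 (-0.50 to 0.17) after thinning to 1000 UMIs, and its interval also spanned 0 with at least 5 receptor UMIs (-0.23) or no Cd3 UMI (-0.24). The direction of the first depended on what the NK cells were counted against. Neutrophil-rich barcodes, with 10 or more neutrophil UMIs, made up 0.287% of the barcodes that passed in the young, 15.2% in the aged and 7.44% in the aged-GA library, and without them the NK share was 3.75%, 3.23% and 2.41%, with an aged over young log2 ratio of -0.21 (-0.46 to 0.03). Among B, T and NK cells alone the share was 4.13% (3.69 to 4.60), 4.27% (3.77 to 4.82) and 2.98% (2.62 to 3.37), which gave 0.05 (-0.20 to 0.29) for aged over young and -0.52 (-0.78 to -0.26) for aged-GA over aged. Per 100 T cells there were 6.22 NK cells in the young, 14.8 in the aged and 8.88 in the aged-GA library, and per 100 B cells 14.0, 6.38 and 4.69. These ratios also depend on the T and B cells. In the same order, T cells were 60.0%, 18.7% and 25.2% of the barcodes that passed, and B cells 26.6%, 43.4% and 47.7%.

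**Figure D1:**
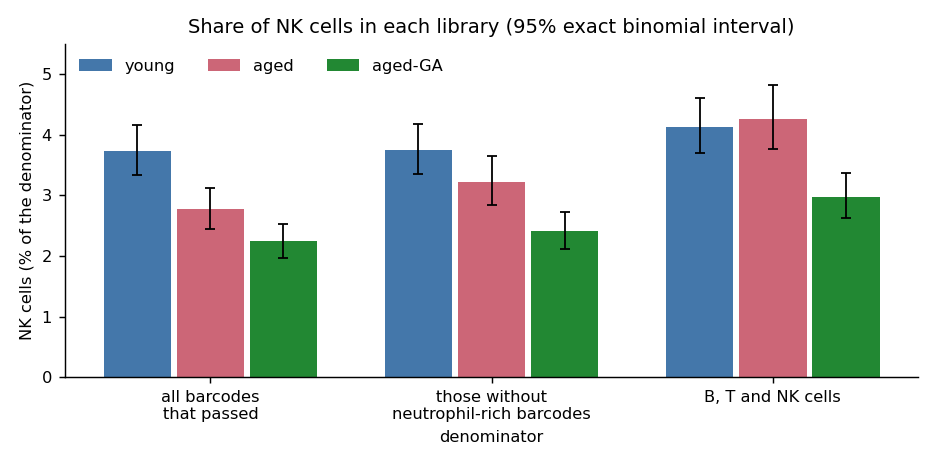
Bars give NK cells as a percent of 3 denominators in the young, aged and aged-GA libraries, and lines the 95% exact binomial interval. The aged bar lies below the young bar against all barcodes that passed (2.77% and 3.73%), and the intervals of both overlap among B, T and NK cells (4.27% and 4.13%).

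Of the Ly49 genes, Klra4 and Klra9, whose levels differed at least 2-fold between young and aged mice, are shown here with Klra8 and Klra3 by the 150 bases before their annotated start (RefSeq, GRCm38.p6, all on the minus strand, written 5′ to 3′ on the strand of the gene). Klra4 encodes Ly49D and Klra8 encodes Ly49H, activating receptors that pair with DAP12. Klra9 encodes Ly49I and Klra3 encodes Ly49C, both inhibitory. The windows lie at chr6:130067272-130067421 for Klra4, chr6:130129899-130130048 for Klra8 (the first of its 2 annotated starts), chr6:130193113-130193262 for Klra9 and chr6:130337627-130337776 for Klra3. Capitals mark the longest run of letters that all 4 windows share, of 17 bases:
Klra4: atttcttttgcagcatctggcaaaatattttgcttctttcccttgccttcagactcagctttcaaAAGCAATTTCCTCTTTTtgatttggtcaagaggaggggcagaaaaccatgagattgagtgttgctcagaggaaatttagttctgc
Klra8: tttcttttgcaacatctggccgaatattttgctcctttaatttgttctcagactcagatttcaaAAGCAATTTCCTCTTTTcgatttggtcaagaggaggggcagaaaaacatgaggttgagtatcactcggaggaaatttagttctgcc
Klra9: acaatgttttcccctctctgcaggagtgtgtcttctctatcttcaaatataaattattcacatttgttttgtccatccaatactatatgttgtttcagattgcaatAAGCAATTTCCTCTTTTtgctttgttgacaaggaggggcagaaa
Klra3: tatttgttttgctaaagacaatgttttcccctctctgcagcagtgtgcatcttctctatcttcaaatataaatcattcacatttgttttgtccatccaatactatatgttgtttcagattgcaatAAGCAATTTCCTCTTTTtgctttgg

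The run lies 85 and 86 bases before the starts of Klra4 and Klra8, 44 before that of Klra9 and 25 before that of Klra3, counted from its first base. It was found, on either strand, in 8 of 32851 windows of the same length (0.0244%), which belong to Klra3, Klra4, Klra6, Klra8, Klra9, Klra17 and Gm52487. Over 250 bases before the start, Klra4 and Klra8 were identical at 212 of 249 aligned bases (85.1%), and Klra3 and Klra9 at 224 of 231 (97.0%). The letters TGTGGT, the core of RUNX sites, and AGGTGT, part of T-box sites, were searched on both strands. Neither was in the 150-base windows of the 9 Klra genes looked up, against 8.40% and 6.86% of all windows. TGTGGT was present once each before Ncr1, Klrb1c and Gzma and not before Klre1, and AGGTGT only before Gzma, 80 bases from the start, among these 4 genes. Ncr1 and Gzma are shown here with the reverse complement of TGTGGT in capitals at chr7:4337565-4337714 (plus strand, the first of 2 starts) and chr13:113100982-113101131 (minus strand):
Ncr1: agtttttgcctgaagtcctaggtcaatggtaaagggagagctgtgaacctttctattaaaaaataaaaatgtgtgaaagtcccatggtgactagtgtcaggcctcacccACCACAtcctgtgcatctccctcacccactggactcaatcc
Gzma: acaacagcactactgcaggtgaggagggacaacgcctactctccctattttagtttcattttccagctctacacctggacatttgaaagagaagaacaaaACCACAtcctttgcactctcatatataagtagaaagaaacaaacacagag

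Outside the rule, 5 Klra genes had enough UMIs to count. The counting interval of the log2 ratio, aged over young, lay below 0 for Klra3, Klra4 and Klra9, as for 14.6% of all 2908 genes counted, and above 0 for Klra1, as for 19.8%, while that of Klra7 spanned 0. Aged-GA over aged it lay above 0 for 9.53% and below 0 for 9.29% of 2843 genes. Klra4 stood at 1151 CPM (interval 1087 to 1218) in the young, 511 (466 to 560) in the aged and 708 (654 to 766) in the aged-GA library. The intervals of the 3 libraries did not overlap, and the aged-GA level lay between the others. The log2 ratio of Klra4 was -1.17 (-1.33 to -1.02), aged over young, and 0.47 (0.30 to 0.65), aged-GA over aged. Klra9 followed the same order, at 709, 341 and 530.0 CPM, with log2 ratios of -1.05 and 0.63. Klra8, which the rule used to choose the cells, stood at 942, 598 and 707 CPM and is given as a description. Klra3 was at 262 CPM (232 to 295) in the young, 172 (146 to 201) in the aged and 174 (147 to 203) in the aged-GA library, the last 2 being alike within counting error. Klra7, encoding the inhibitory receptor Ly49G2, was at 432, 396 and 355 CPM, with an aged over young interval of -0.33 to 0.07. Klra1, encoding the inhibitory receptor Ly49A, went from 90.3 CPM (73.0 to 111) in young to 122 (100.5 to 147) in aged and 174 (147 to 203) in aged-GA mice, so that young and aged-GA did not overlap. In the last 500 bases of the annotated coding transcripts (GENCODE vM21), where 3′ reads fall, 39.6% of 50-base words of Klra9, 31.5% of Klra3, 13.1% of Klra8 and 4.66% of Klra4 also occurred in another Klra gene, so the split of reads between Klra9 and Klra3 is less certain than the level of Klra4.

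**Figure D2:**
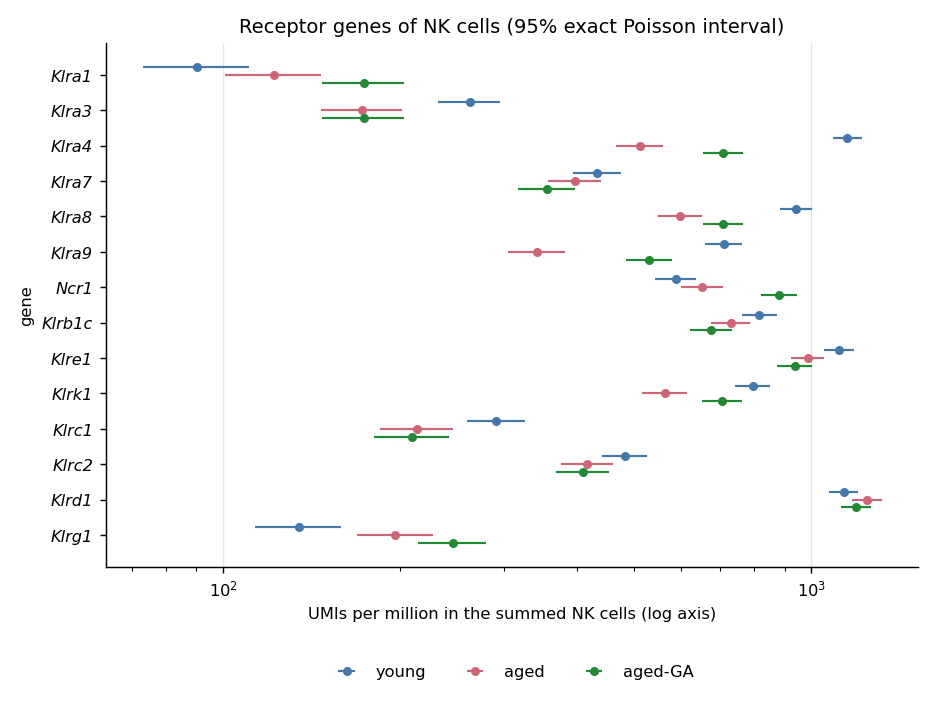
Points give UMI levels in CPM of the summed NK cells of each library on a log axis for 14 receptor genes, and lines the 95% exact Poisson interval. Klra4 and Klra9 lie furthest right in young (1151 and 709) and furthest left in aged mice (511 and 341), while Klra1 and Klrg1 are highest in aged-GA mice (174 and 245). Klrb1c, Klre1, Ncr1 and Klra8 chose the cells and are shown as a description.

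A gene was counted when the libraries compared held 100 or more of its UMIs in sum and either reached 50 CPM, and called when it differed at least 2-fold with a pseudocount of 1 CPM. By this measure 57 of 2908 genes (1.96%) were higher in aged than in young NK cells and 27 (0.928%) lower, and the median log2 ratio over all genes was 0.04. Of the activating receptors, 12 were counted and 1, Klra4, was called, lower, a call lost with the mean over cells (-0.93). The median was 0.01, and -0.46 over the 8 with at least 300 UMIs. Klrk1, encoding the stress-ligand receptor NKG2D, was at 794, 563 and 705 CPM, and Klrb1f, encoding an NKR-P1 receptor, at 199, 123 and 143, both with aged over young intervals below 0. Cd160 was at 41.3, 79.6 and 79.6 CPM. Of 8 inhibitory receptors counted 1, Klra9, was called, lower, with a median of -0.02. Its call was lost in 3 of 13 alternatives (up to -0.93): the mean over cells, and without cells over 3 times the median UMIs or proliferating cells. Klrg1, the inhibitory receptor that marks mature NK cells, was at 134 CPM (113 to 159) in the young, 196 (169 to 227) in the aged and 245 (214 to 280) in the aged-GA library. Klrc1, encoding the inhibitory NKG2A, was at 291, 214 and 210 CPM and its partner Klrd1 (CD94) at 1135, 1241 and 1191.

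The genes of the rule are given as a description of what chose the cells. Klrb1c (NK1.1) was at 816, 730.2 and 676 CPM and Klre1 at 1114, 985 and 937. Ncr1, encoding the activating receptor NKp46, was at 588 CPM (542 to 636) in the young, 652 (601 to 706) in the aged and 882 (821 to 946) in the aged-GA library, and its aged-GA interval lay above both others. None of the 4 was called in either comparison, with medians of -0.17 for aged over young and 0.08 for aged-GA over aged.

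The share of cells that held Ly49 transcripts was compared next. After each cell was thinned to 1000 UMIs, which left 309, 250 and 243 cells, a Klra4 UMI was found in 48.9% (43.2 to 54.6) of the young, 29.6% (24.01 to 35.7) of the aged and 36.6% (30.6 to 43.0) of the aged-GA cells. Without thinning, the shares were 58.3%, 38.7% and 46.9%. The aged share was also the lowest for Klra9 (37.2%, 25.2% and 30.5%) and Klra3 (16.5%, 9.60% and 13.2%), while Klra7 was found in 29.4%, 29.6% and 24.7% and Klra1 in 5.18%, 7.60% and 11.9%, in which aged-GA was highest. Without thinning the shares were 58.7%, 41.9% and 51.9% for Klra9, 33.0%, 20.2% and 26.3% for Klra3, 49.0%, 48.2% and 47.3% for Klra7 and 11.5%, 15.02% and 18.9% for Klra1. In cells with a Klra4 UMI before thinning, the mean count was 6.58 UMIs in the young, 4.79 in the aged and 5.54 in the aged-GA library. None of 8 Klra genes (Klra8 left out, since the rule used it) was found in 15.9% (12.0 to 20.4) of the young, 32.4% (26.6 to 38.6) of the aged and 25.5% (20.2 to 31.5) of the aged-GA cells, and 2 or more in 43.7%, 29.2% and 35.8%. Without thinning, the share with none was 5.77%, 16.2% and 11.1%, in the same order. For comparison, Klra4 stood at 0.599, 0.477 and 1.22 CPM in T cells. Klra8 was found in 53.6% of young cells with Klra4 and 39.9% of those without. The corresponding shares were 52.7% and 21.02% in aged and 46.1% and 29.2% in aged-GA mice, a description in cells that Klra8 helped to choose.

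Of the granule genes, 12 were counted and none was called, 11 of them had a lower level in aged than in young mice, and the median was -0.15. Of all 2908 genes counted, 1315 had a ratio below 0. Gzmb, the granzyme that activates caspases in the target cell, was at 1723 CPM (1645 to 1805) in the young, 1187 (1117 to 1259.5) in the aged and 1463 (1385 to 1545) in the aged-GA library. Prf1, encoding the pore-forming perforin, was at 1249, 894 and 1081 CPM. For both genes the 3 intervals were separate, with aged mice lowest. Fasl, encoding the death ligand, was at 269.9, 208 and 245 CPM. Unc13d, needed for granule release, stood at 30.7, 71.9 and 63.9 CPM, on 32, 66 and 57 UMIs, and had too few to be counted for aged over young. The NK identity list, which shares Gzma and Prf1 with the granule list, had 14 genes counted, none called, and a median of -0.09 for aged over young and 0.05 for aged-GA over aged.

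Of 18 transcription factors counted none was called, and the median was -0.06, but the factors of NK maturation did not move one way. Zeb2, which drives terminal maturation, was at 234 CPM (206 to 266) in the young, 428 (387 to 473) in the aged and 489 (444 to 537) in the aged-GA library, so that both aged libraries lay above young. Tbx21 was at 69.2, 107 and 112 CPM. Eomes was at 282 CPM (251 to 317), 195 (168 to 226) and 233 (202 to 267). Id2, required for NK development, stood at 2086, 1196 and 1247 CPM, with an aged over young log2 ratio of -0.80 (-0.91 to -0.70). The quiescence and trafficking factor Klf2 was at 2793 CPM (2692 to 2896) in the young, 1486 (1408 to 1567) in the aged and 2482 (2380 to 2587) in the aged-GA library. Its log2 ratios were -0.91 and 0.74, against -0.20 and 0.31 in T cells and -0.82 and 0.42 in B cells.

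Maturity and homing genes differed in both directions. Of 14 genes of mature NK cells 1, the chemokine receptor Cx3cr1, was called, at 37.5 CPM (26.6 to 51.2) in the young, 91.5 (73.0 to 113) in the aged and 86.3 (68.1 to 108) in the aged-GA library, and the median was 0.22. Cx3cr1 is also one of the monocyte and macrophage markers, which summed to 517, 831 and 686 CPM, with Lyz2 at 4.80, 143 and 94.1, and their part in this call was not tested. Itgam was at 190.2 CPM (165 to 219), 325 (289 to 364) and 288 (254 to 325). Of 7 immature NK genes counted, Cd7 was called higher and Ctla2a lower, and the median was -0.16. The call of Cd7 was lost with the mean over cells (0.79), that of Ctla2a without cells over 3 times the median UMIs or without proliferating cells (up to -0.96). The median of the list was 0.01 with the mean over cells. It was 0.19 with at least 20 UMIs and no minimum of CPM, both limits being changed at once. Ctla2a, encoding an inhibitor of cathepsins, stood at 608 CPM in the young, 298 in the aged and 290.2 in the aged-GA library. Cd27 was found too rarely to be counted, in 30, 28 and 29 cells. Per cell, the mature list gave a median of 84.6% of the UMIs of both lists in the young, 87.5% in the aged and 85.7% in the aged-GA library, with quartiles of 70.0 to 93.8%, 71.4 to 100% and 72.1 to 93.8%, which overlapped widely. Of 14 trafficking receptors counted, Cx3cr1 was called higher and S1pr4, a receptor for the egress signal sphingosine 1-phosphate, lower, at 174, 79.6 and 115 CPM, and the median was 0.13. S1pr5, the form of that receptor used by mature NK cells, was at 85.5, 112 and 118 CPM. Only 1 gene of the ILC1 list, Rora, had enough UMIs to count. Cells with 2 or more ILC1 UMIs and no Eomes UMI, after thinning, were 7 of 309 in young (2.27%), 11 of 250 in aged (4.40%) and 3 of 243 in aged-GA mice (1.23%).

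**Figure D3:**
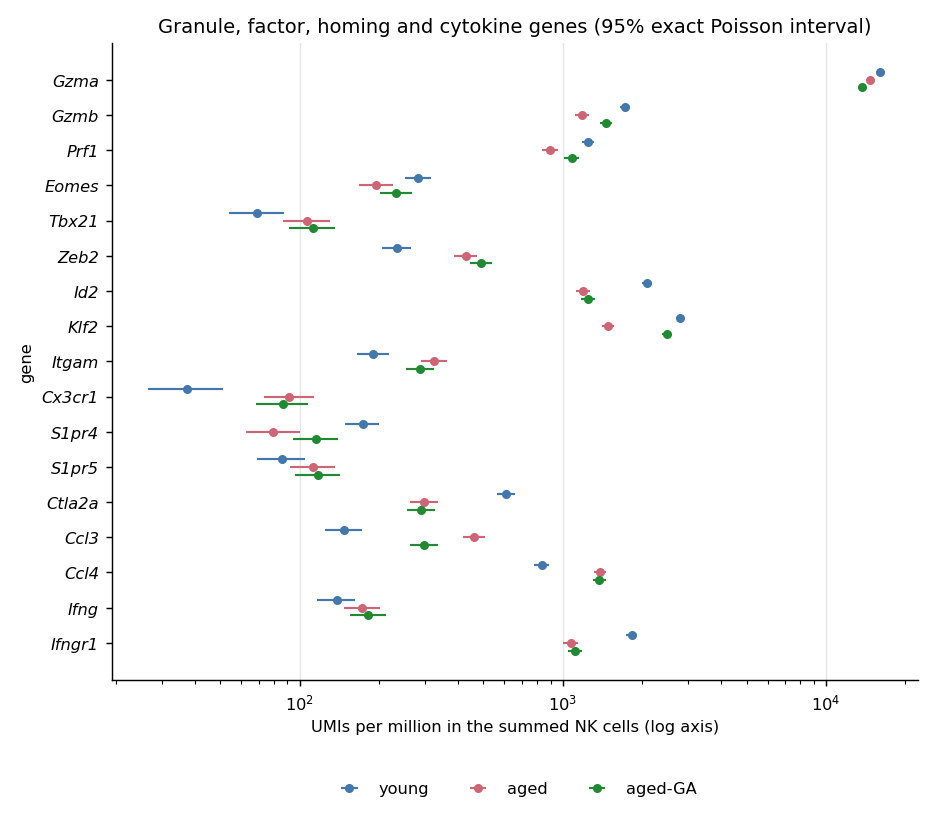
Points give UMI levels in CPM of the summed NK cells of each library on a log axis for 17 granule, transcription factor, homing and cytokine genes, and lines the 95% exact Poisson interval. Zeb2, Itgam, Cx3cr1 and Ccl4 lie further right in both aged libraries than in young, Id2, Ctla2a and Ifngr1 further left, and Klf2 is lower in aged (1486) than in young (2793) and aged-GA mice (2482).

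All 6 cytokine and chemokine genes counted had a ratio above 0 (1593 of 2908 over all genes), with a median of 0.38, and 1 was called. It was Ccl3, encoding a chemokine that draws monocytes and lymphocytes, at 147 CPM (125 to 172) in the young, 462 (419 to 508) in the aged and 297 (262 to 335) in the aged-GA library, in 77, 123 and 102 cells. Ccl4, its close relative, was at 831, 1385 and 1378 CPM and was not called. Both also differed in T cells, where Ccl3 went from 0.0749 to 68.2 and 16.3 CPM. Ifng, encoding interferon-gamma, was at 138, 173 and 183 CPM with overlapping intervals. Xcl1, a chemokine for dendritic cells, was at 207, 216 and 124 CPM, and 4 cells gave 42.3% of its UMIs in young mice. Of 15 cytokine receptor and JAK-STAT genes 1 was called, Socs1, a feedback inhibitor of cytokine signalling, at 122 CPM (101.7 to 145) in the young, 41.4 (29.3 to 56.8) in the aged and 74.0 (57.2 to 94.1) in the aged-GA library, and the median was -0.12. Ifngr1, the ligand-binding chain of the interferon-gamma receptor, was at 1825, 1072 and 1113 CPM, and Stat4, which transmits interleukin 12, at 311, 203 and 220 CPM. Among 17 adaptors and signalling genes the median was 0.26, and Lcp2 (SLP-76), a scaffold below activating receptors, was called higher, at 49.0, 108 and 75.1 CPM. With at least 300 UMIs 8 genes of the list were left and the median was -0.08, and with a pseudocount of 10 CPM the ratio of Lcp2 was just under 2-fold.

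The genes with the largest ratios, outside the lists of other cell types, were in part shared with T and B cells of the same libraries. Those furthest down from young to aged included the locus AY036118, at 3738 CPM in the young, 857 in the aged and 921 in the aged-GA library and 3566, 774 and 737 in T cells. Ddit4, an inhibitor of mTOR signalling induced by stress, had a log2 ratio of -1.82 in NK, -2.24 in T and -1.83 in B cells. For Txnip, which restrains glucose uptake, the ratios were -1.35, -1.30 and -0.91, and for the growth arrest gene Gadd45a -1.26, -1.10 and -1.43. Tnfrsf9 and Tmem37 had few UMIs in T cells. Tnfrsf9 (4-1BB), a costimulatory receptor, stood at 99.9 CPM (81.6 to 121) in the young, 31.6 (21.2 to 45.4) in the aged and 53.8 (39.7 to 71.3) in the aged-GA library, against at most 3.695 CPM in T cells. Tmem37 was at 134, 44.7 and 91.9 CPM in NK and at most 6.21 in T cells. Sesn1, a stress-response gene, had ratios of -1.32 in NK, -0.53 in T and -1.03 in B cells, and Ddit3, a factor of the unfolded protein response, ratios of -1.30, 0.23 and -0.31. Among the genes furthest up, Nlrc5, the transactivator of MHC class I genes, was at 24.02, 81.7 and 44.8 CPM in NK cells, with ratios of 1.73 in NK, 1.51 in T and 1.30 in B cells. Xdh, encoding xanthine dehydrogenase, was at 36.5, 116 and 101.97 CPM, Arhgef3 had a ratio of 1.49, Nsd2 of 1.41 and Gm26917 of 2.21.

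**Figure D4:**
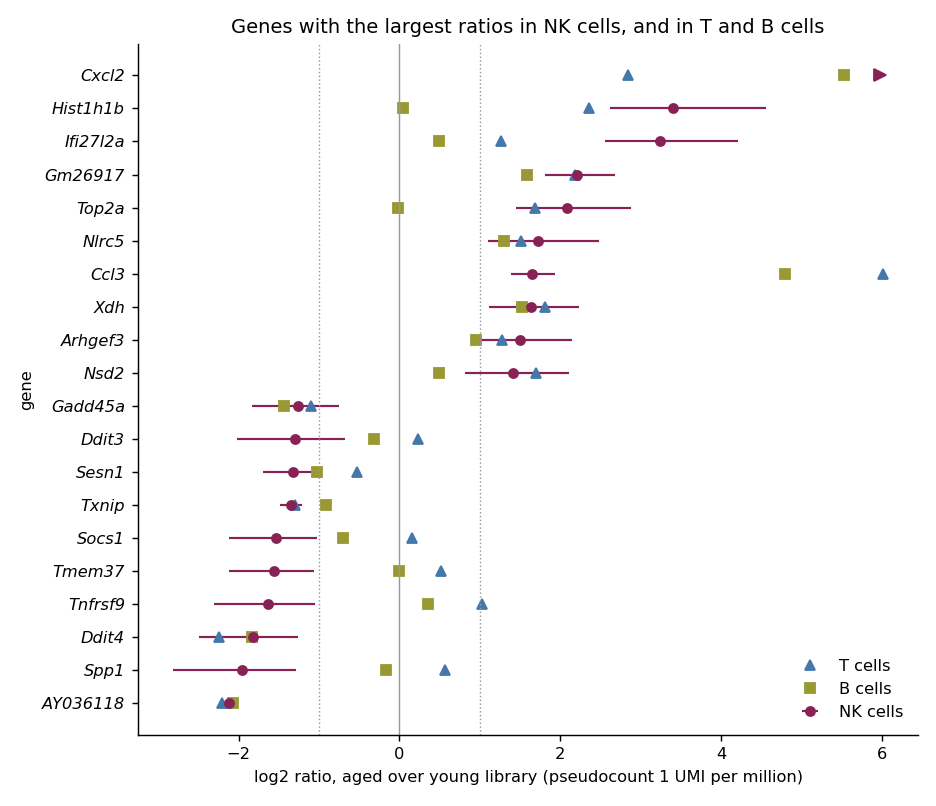
The x axis gives the log2 ratio of aged over young for the 10 genes furthest up and the 10 furthest down in NK cells, leaving out genes in the lists of other cell types and haemoglobin, mitochondrial, ribosomal, immunoglobulin and T-cell receptor genes (circles with the 95% counting interval), with the same ratio in T cells (triangles) and B cells (squares), and dotted lines mark 2-fold. For AY036118, Ddit4 and Txnip the 3 cell types lie together, while Socs1 has -1.54 in NK and 0.15 in T cells. Tnfrsf9 and Tmem37 had at most 3.695 and 6.21 CPM in T cells, where their ratios rest on few UMIs. Cxcl2 had no UMI in young NK cells, and its arrow marks the bound given by 3 counts.

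Most genes of the heat shock, immediate early and glucocorticoid lists had a ratio below 0, and 0, 1 and 3 of them were called lower. Of all 2908 genes counted in NK cells, 1315 had a ratio below 0 and 27 (0.928%) were called lower. All 8 heat shock genes counted had a ratio below 0, none was called, and the median was -0.49, against -0.13 in T and -0.31 in B cells. The chaperone Hsp90aa1 was at 663, 375 and 384 CPM and Hspe1, a mitochondrial cochaperonin, at 342, 211 and 222. Of 15 immediate early genes 12 had a ratio below 0 and 1, Ier5, was called, at 463, 211 and 251 CPM. Their median was -0.30 in NK, -0.15 in T and -0.79 in B cells. The list of genes that respond to glucocorticoids had 9 genes counted, of which Ddit4, Txnip and Tsc22d3 were called lower, with a median of -0.39 in NK, -0.67 in T and -0.73 in B cells. The call of Tsc22d3 was lost without cells holding a Cd3 UMI and with the mean over cells (up to -0.96). Tsc22d3 (GILZ), a glucocorticoid-induced regulator, was at 708 CPM (658 to 761) in the young, 332 (296 to 372) in the aged and 453 (410 to 499) in the aged-GA library. The median over all genes counted was 0.31 in T and 0.21 in B cells, against 0.04 in NK cells.

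Interferon-response genes had 8 members counted, aged over young, with 7 ratios above 0 (1593 of 2908 over all genes) and a median of 0.53. The 1 called was Ifi27l2a, at 14.4 CPM in the young, 145 in the aged and 32.5 in the aged-GA library, and 4 of the 54 aged cells with this gene gave 45.1% of its UMIs. It stood at 643, 1543 and 924 CPM in T cells, above its level in NK cells. MHC class I genes had 15 members counted, a median of -0.03 and 1 call, Nlrc5. H2-K1 was at 3790, 3752 and 3967 CPM.

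Transcripts of proliferation lay in few cells. At least 3 UMIs of Mki67, Top2a, Pclaf, Birc5, Ube2c and Cdk1, a sum chosen after the values were seen, were found in 0 of 312 young cells, a share with an exact interval of 0 to 1.18% (3 counts would be 0.962%), in 7 of 253 aged cells (2.77%, interval 1.12 to 5.62) and in 1 of 243 aged-GA cells (0.412%, 0.0104 to 2.27). In T cells the shares were 0.419%, 1.93% and 1.21%. The 7 aged cells held 298 of the 322 UMIs of these genes and a median of 9628 UMIs. Of 8 cell cycle genes counted, Top2a was called higher in aged mice, at 21.1, 92.6 and 25.8 CPM, with 81.2% of its aged UMIs in 4 cells. The list's median was 0.42. It was -0.28 without the proliferating cells, but these were chosen by genes of this kind and none was young, so leaving them out lowers the aged level by construction. Hist1h1b, a linker histone made in S phase, had 82.0% of its aged UMIs in 4 cells. At least 2 UMIs of the whole list, which holds genes of resting cells such as H2afz, were found in most thinned cells, with shares of 91.9%, 86.0% and 85.6%.

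Of the 57 genes called higher in aged mice, 8 had over 50% of their aged UMIs in 4 cells, 41 had under 25% there, and 11 were in the lists of other cell types, 5 of them haemoglobin or immunoglobulin genes. Cxcl2, a neutrophil chemokine, had no UMI in young and 166 in aged mice, at least 62.8-fold higher when 3 counts over the young cells are taken as the bound, but 95 came from 1 cell, and 14 were left, at 15.6 CPM, without the 3 neutrophil-rich barcodes. Of the 27 called lower, 1 had over 50% of its young UMIs in 4 cells. It was Spp1, encoding osteopontin, with 71 of 87 UMIs in 1 young cell. Klra4 had 6.68% of its young UMIs in 4 cells. Without the neutrophil-rich barcodes 49 genes were higher, 48 of them among the 57, and 28 lower, including all 27.

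**Figure D5:**
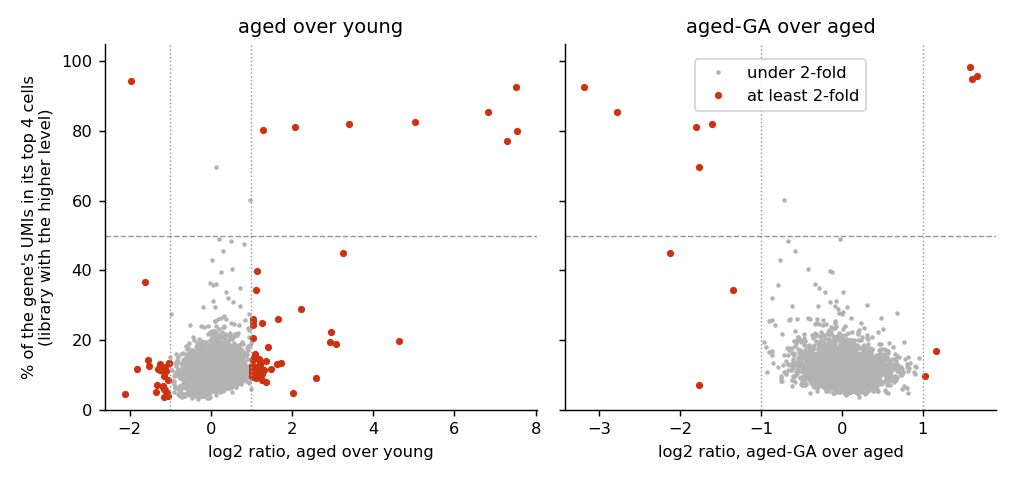
Each point is a gene counted in a comparison, with the log2 ratio on the x axis and, on the y axis, the percent of its UMIs that lay in its 4 richest NK cells in the library with the higher level. Genes called 2-fold are in red. Of those higher in aged than in young mice 8 lie above the dashed line at 50%, and aged-GA over aged 3 of the 5 higher and 5 of the 8 lower do.

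Aged-GA and aged NK cells differed in few genes. Of 2843 genes counted 5 (0.176%) were at least 2-fold higher in aged-GA and 8 (0.281%) at least 2-fold lower, with a median log2 ratio of 0.02. The neutrophil genes S100a8, S100a9 and Retnlg were 3 of the 5, and without the neutrophil-rich barcodes 2 were left, Tmem37 and Swt1. The call of Tmem37 was lost with the mean over cells and with a pseudocount of 10 CPM (down to 0.90), and that of Swt1 with the latter (0.997). Tmem37 had a ratio of 1.02 (0.48 to 1.62) and Swt1, at 59.6 CPM in the young, 34.9 in the aged and 79.6 in the aged-GA library, one of 1.17 (0.57 to 1.84). Among the 8 lower were Cxcl2, Il1b, Top2a, Hist1h1b and the histone gene Hist1h2ap, each with over 50% of its aged UMIs in 4 cells. The others were Ifi27l2a, Cmtm7 and the mitochondrial gene mt-Atp8. The lower calls of Cxcl2 and Il1b also rested on the neutrophil-rich barcodes. With these left out, Cxcl2 had 15.6 CPM in the aged library and 18.2 in the aged-GA library, the opposite direction. Il1b then had 18.9 CPM in the aged library and 14.8 in the aged-GA library. Neither gene reached the 50 CPM needed to be counted. Cmtm7 was at 45.1, 98.1 and 38.1 CPM. The median mitochondrial share of an NK cell was 2.97% in the young, 2.01% in the aged and 2.80% in the aged-GA library, and its part in the ratios was not tested. Below 2-fold, the genes furthest up were Gtf3a, Ttc19, Camk2d, Ppwd1, Ly6c2, Dtnbp1, Fam53b and Socs1, with ratios from 0.96 to 0.82. Ly6c2, encoding a surface protein, was at 580.2 CPM (535 to 628) in the young, 387 (348 to 429) in the aged and 716 (662 to 774) in the aged-GA library. Furthest down below 2-fold were Nr4a1, Nsd2, Brd1 and Larp1, from -0.96 to -0.90.

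The median of no NK gene list reached 0.5 in size from aged to aged-GA. The median was 0.12 for 12 granule genes, 0.13 for 13 activating and -0.01 for 8 inhibitory receptors, 0.15 for 18 transcription factors, 0.05 for 15 cytokine receptor and JAK-STAT genes, -0.03 for 17 adaptors, -0.05 for 6 cytokines and chemokines, 0.02 for 14 trafficking receptors, -0.04 for 7 immature and 0.21 for 14 mature NK genes, and none of these genes was called. Heat shock genes had a median of -0.09, immediate early genes of 0.09, MHC class I genes of -0.04 and glucocorticoid-responsive genes of 0.19, again with no call. Of 7 interferon-response genes 6 were below 0 (1350 of 2843 over all genes), with a median of -0.31 and Ifi27l2a called. All 8 cell cycle genes were below 0, with a median of -0.35 and Top2a called, and the median was 0.0078 without the proliferating cells, 7 aged and 1 aged-GA. These cells were chosen by genes of this list and most were aged, so leaving them out raises the ratio by construction.

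Cells within a library also differed. Among 20 genes with the highest Fano factor, the variance of the thinned counts over their mean, 5 encode chemokines or granzymes besides the abundant Ccl5: Ccl4, Gzma, Xcl1, Gzmb and Ccl3. The factor of Ccl4 was 6.54 in the young, 6.80 in the aged and 3.54 in the aged-GA library, and that of Xcl1 was 3.17, 2.69 and 1.41. Klra8 (2.19, 2.50 and 2.13) and Klra4 (2.14, 2.03 and 1.99) were the Ly49 genes among them. Hbb-bs, a red cell gene, had 1.12 in the young, 21.7 in the aged and 10.6 in the aged-GA library, at means of 0.838, 7.03 and 4.96 thinned UMIs per cell. The highest haemoglobin share of an NK cell was 0.820%, 18.7% and 13.1% in the same order, and its part in these factors was not tested. The others were Ccl5, Malat1, Gm42418, Hba-a1, Hba-a2, Tmsb4x, Actb, Stmn1, S100a6, AW112010, Klf2 and mt-Atp6. S100a6, a calcium-binding protein, was called 2-fold higher in aged mice, at 885, 1783 and 1566 CPM.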

How the data were processed

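Blood mononuclear cells were sequenced in 1 droplet library for each of 3 groups of mice. The authors aligned the reads with Cell Ranger, and the deposited values are raw counts of UMIs for 32285 genes per barcode. The file headers name version 5.0.0 and the labels the build mm10. The deposited barcodes held 58894294 UMIs in the young, 82260961 in the aged and 98155671 in the aged-GA library; 8354, 9136 and 10843 barcodes passed the filters. Counts were summed over NK cells (Python 3.11.15, numpy 2.4.6, scipy 1.17.1). No test was possible with 1 library in each group. T and B cells were chosen by at least 3 Cd3 or Cd79 UMIs, no NK receptor UMI and no Csf1r. Thinning used a fixed seed, and the scripts were tested on simulated data. Doublets were kept; Scrublet (scanpy 1.11.5) marked 0 of 312, 2 of 253 and 0 of 243 NK cells, and with 3 of 10843 aged-GA barcodes marked it did not work there. Named genes are those of the rule, of the gene lists and of the 10 largest ratios in each direction and comparison, leaving out genes in the lists of other cell types and those of haemoglobin, immunoglobulins, T-cell receptor segments, mitochondria and ribosomes, and the 20 highest Fano factors; mt-Atp8, Il1b, S100a8, S100a9 and Retnlg complete short counts. The members and lists were chosen with earlier results of these data known. The alternatives tried were other limits of the rule and filters, denominators, doublet removal, scalings, pseudocounts and minimum counts. Promoter windows are from RefSeq.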

Additional observations from a re-analysis of the deposited data

Results flagged for a closer look

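Ctla2a, which encodes an inhibitor of cathepsins, was at least 2-fold lower in NK cells and at least 2-fold higher in T cells of the same libraries, which are opposite directions under the same comparison. Its log2 ratio, aged over young, was -1.03 in NK cells, from 608 to 298 CPM, and 1.26 in T cells, from 100 to 243 CPM. In NK cells the ratio was under 2-fold without cells over 3 times the median UMIs and without proliferating cells, the nearer to 0 being -0.96. The difference between the cell types was not tested, since each group has 1 library. In NK cells its UMIs lay in 180 young, 86 aged and 88 aged-GA cells.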

How the results depend on the processing

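The share of NK cells, aged over young, had a log2 ratio of -0.43 against all barcodes that passed, 0.047 among B, T and NK cells, where the direction turned, and -0.87 against all deposited barcodes. The number of genes called moved with the minimum UMIs and CPM of a counted gene and with the pseudocount. Aged-GA over aged it also moved with the cells chosen. The lower minimum of UMIs was tried only together with no minimum of CPM, so their parts cannot be told apart. Aged over young, 57 genes were higher and 27 lower. With at least 20 UMIs and no minimum of CPM there were 376 and 145, with at least 300 UMIs 10 and 13, and with a pseudocount of 10 CPM 36 were higher. Aged-GA over aged, 5 were higher and 8 lower. The counts were 106 and 119 with at least 20 UMIs and no minimum of CPM. They were 3 and 0 with at least 300 UMIs, fewer genes being tested. With at least 5 receptor UMIs 2 genes were higher. Without cells over 3 times the median UMIs, and with a pseudocount of 10, there were 3. Without the neutrophil-rich barcodes 2 were higher, and without proliferating cells 4 were lower. Values were followed for 49 ratios of single genes, the largest ratios and called list genes. Of these values 533 stayed within the counting interval and 9 did not. No called gene turned its direction where it was still counted. Cxcl2 was too low to be counted without the neutrophil-rich barcodes. There its direction turned aged-GA over aged, at 15.6 CPM in aged and 18.2 in aged-GA mice. Not all of the 49 ratios were calls, since the largest ratios aged-GA over aged included genes under 2-fold, which had no call to lose. Among the called ratios, 10 lost their call in at least 1 alternative. Aged over young these were Klra4, Klra9, Ctla2a, Tsc22d3, Cd7 and Lcp2, and aged-GA over aged Tmem37, Swt1, Hist1h2ap and Hist1h1b, mostly with the mean over cells (Klra4, Klra9, Tsc22d3, Cd7, Tmem37 and both histone genes) or a pseudocount of 10 CPM (Lcp2, Tmem37 and Swt1). Of the list medians 43 moved and 423 did not. Of the shares of cells with a UMI 74 moved and 4 did not. The sign turned aged over young for the cell cycle, immature NK and adaptor lists, as given above, and among lists with a median under 0.1 in size for activating receptors (from -0.46 to 0.04), inhibitory receptors (-0.13 to 0.09), transcription factors (-0.10 to 0.07) and MHC class I genes (-0.04 to 0.00095). Aged-GA over aged it turned for 10 lists, of which only the cell cycle and glucocorticoid lists had a median over 0.1 in size, the latter from -0.02 to 0.36. Klra4 had log2 ratios from -1.25 to -0.93, and Klra9 from -1.07 to -0.93, aged over young. No paired analysis was possible because each group has 1 library. Depth limits what can be said of genes under about 50 CPM, where a few UMIs decide a ratio, and intervals leave out differences between mice.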

Other observations

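Transcripts of 3 T-cell receptor constant genes in NK cells lay between those of T and B cells, and Trdc lay above both. Trbc1 stood in NK cells at 306 CPM in the young, 344 in the aged and 341 in the aged-GA library, against 825, 809 and 823 in T cells and 6.87, 8.50 and 11.5 in B cells. Trbc2 was at 286, 317 and 305 CPM in NK cells, at 1852, 1734 and 1730 in T cells and at 11.7, 13.0 and 22.8 in B cells. Trac, in contrast, was at 10.6, 18.5 and 15.7 CPM in NK cells, at 551, 545 and 484 in T cells and at 3.32, 4.46 and 5.35 in B cells. Trdc was at 55.7, 37.1 and 39.2 CPM in NK cells, at 29.3, 26.2 and 27.8 in T cells and at 0, 0 and 0.219 in B cells. Cells that held at least 3 UMIs of the 4 NK receptors and at least 3 of Cd3 were 88 in the young, 133 in the aged and 227 in the aged-GA library, or 1.05%, 1.46% and 2.09% of the barcodes that passed. In these T cells with NK receptors the level of Klra4 was 185, 44.4 and 12.7 CPM and that of Ncr1 122, 90.0 and 23.1 CPM. Ncr1 helped to choose these cells, so its level is given as a description.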
